A study of Homo sapiens with 12 samples.

Results

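The expression of 10 genes that encode cytokines and chemokines, CXCL1, CXCL2, CXCL3, CXCL8, CCL20, IL1A, IL1B, IL36G, IL6 and CSF2, was followed in tumour cells treated with squamocin. They were matched by gene name, and all 10 were listed in both deposited tables, among 29657 genes in the SCC15 table and 31055 in the SCC25 table. SCC15 and SCC25 are established lines of head and neck squamous cell carcinoma (HNSCC), which the labels describe as oral squamous cells of WT genotype. RNA-seq was performed after 24 h with 10 µg/mL squamocin, a plant polyketide of the annonaceous acetogenins (labelled ACGs), or with the vehicle DMSO. Each cell line had 3 squamocin and 3 DMSO libraries, 12 in all. The design holds 1 dose and 1 time point. The labels do not say whether the 3 libraries of a group came from separate cultures, so p-values measure only the spread between these libraries, which may be technical.

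The deposited value of a gene is its read count divided by a size factor of the library, called normalized count here. Reads on genes numbered from 16665563 to 22748845 per library. The library of SCC15 squamocin replicate 3 stood apart from its group: its counts differed from those of replicates 1 and 2 with a chi-square per degree of freedom of 71.6 and 63.6, against 1.72 to 11.02 for the other pairs of replicates. Its normalized counts summed to 24626253, against 20467856 and 20826159 in the other two, so the SCC15 results of the 10 genes are also given without it, and those of the other lists where a call or count differed. The squamocin libraries had larger sums of normalized counts than the DMSO libraries, which summed to between 15466464 and 15535484 in SCC15, and in SCC25 to 20917114 or more against 18333723 or less. Scaling all libraries to equal totals moved the median log2 fold change of all genes from 0.012 to −0.48 in SCC15 and from −0.015 to −0.22 in SCC25. Under that scaling 22.7% of the called genes in SCC15 were higher, against 50.8% with the authors' size factors, and in SCC25 39.1% against 49.9%. The 9 members called in SCC15 and the 8 called in SCC25 kept their direction under it.

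Chemokines are small secreted proteins that attract leukocytes. CXCL1, CXCL2, CXCL3 and CXCL8 act through the receptor CXCR2 on neutrophils, and CXCL8 also through CXCR1. CCL20 acts through CCR6 on dendritic cells and lymphocytes. IL1A and IL1B encode the interleukin-1 cytokines, which start inflammatory signalling through IL1R1, and IL36G encodes an IL-1 family cytokine of keratinocytes. IL6 encodes interleukin 6, which signals through IL6R and gp130 (IL6ST) to STAT3, and CSF2 encodes the myeloid growth factor GM-CSF. Squamous tumour cells are known to transcribe many of these genes through NF-κB, AP-1 and C/EBP factors bound close to the start site.

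CXCL1, CXCL2, CXCL3 and CXCL8 lie in a cluster on chromosome 4, and the sequences below are shown because CXCL1, CXCL2 and CXCL3 hold the same κB element at nearly the same place, from base 79 (CXCL1 and CXCL3) or 78 (CXCL2) before the start, while their responses, given further on, were not the same. Each is a piece of the 250 bases before the RefSeq start site (GRCh38.p14), written 5′ to 3′ on the strand of the gene, with the κB element in capitals.
CXCL1: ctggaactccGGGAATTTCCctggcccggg
CXCL2: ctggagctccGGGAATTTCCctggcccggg
CXCL3: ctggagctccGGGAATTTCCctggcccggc
CXCL8: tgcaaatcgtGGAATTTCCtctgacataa
IL6: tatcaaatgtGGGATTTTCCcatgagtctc
CCL20: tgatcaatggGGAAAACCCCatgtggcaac
The pieces lie at chr4:73869304-73869333 on the plus strand for CXCL1, chr4:74099254-74099283 on the minus strand for CXCL2 and chr4:74038749-74038778 on the minus strand for CXCL3. Those of the other genes lie on the plus strand, at chr4:73740468-73740496 for CXCL8, chr7:22727117-22727146 for IL6 and chr2:227813753-227813782 for CCL20. In CCL20 the element reads on the opposite strand. The CXCL3 piece lies within an annotated exon of CXCL3 and the other 5 lie in no annotated exon (GENCODE release 44).

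The κB consensus, searched on both strands, was found in the windows of 5 of the 10 genes, against 9.96% of 35116 RefSeq windows of this length. CXCL8 holds only the 9-base form GGAATTTCC, which lies within the elements of CXCL1, CXCL2 and CXCL3 and was found in 0.413% of all windows. The AP-1 letters TGANTCA were found in the windows of CXCL8 and IL1A (6.57% of all windows). The C/EBP letters TTGCNNAA were found in those of CXCL2, IL1B and IL6 (9.05% of all windows), and the composite letters TGATGNAA in those of 0 of the 10 genes (3.14% of all windows). A match describes letters and not binding, which was not measured here.

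In SCC15 cells, squamocin was followed by higher levels of 7 of the 9 genes tested and lower levels of 2, CXCL1 and IL6. CSF2, among the 7, had a DMSO mean of 6.59 normalized counts and entered the test only through its squamocin libraries. With a filter of at least 10 in every library it was not tested, and 6 genes were called higher. Among all 15902 genes tested in this line, 30.9% were called higher and 30.0% lower. In SCC25 cells, 5 of the 10 genes rose (CXCL3, CCL20, IL36G, IL6 and CSF2), 3 fell (CXCL8, IL1A and IL1B) and 2 did not pass the test (CXCL1 and CXCL2). Among all 16539 genes tested there, 38.3% were called higher and 38.5% lower. The median log2 fold change of the genes was 1.89 in SCC15 and 0.69 in SCC25, beside medians over all genes of 0.012 and −0.015. CXCL3, CCL20 and CSF2 were higher in both lines, as were 22.1% of the 14454 genes tested in both. CXCL8, IL1A and IL1B rose in SCC15 and fell in SCC25, as did 5.44% of those genes, and IL6 fell in SCC15 and rose in SCC25, as did 4.66%. Fewer cells that transcribe a gene and less RNA per cell cannot be told apart in such bulk libraries. A call is an adjusted p under 0.05 in limma on log2(normalized count + 1), over genes with a mean of at least 10. For a single gene an exact permutation test of 3 against 3 libraries cannot go below p = 0.1.

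**Figure D1:**
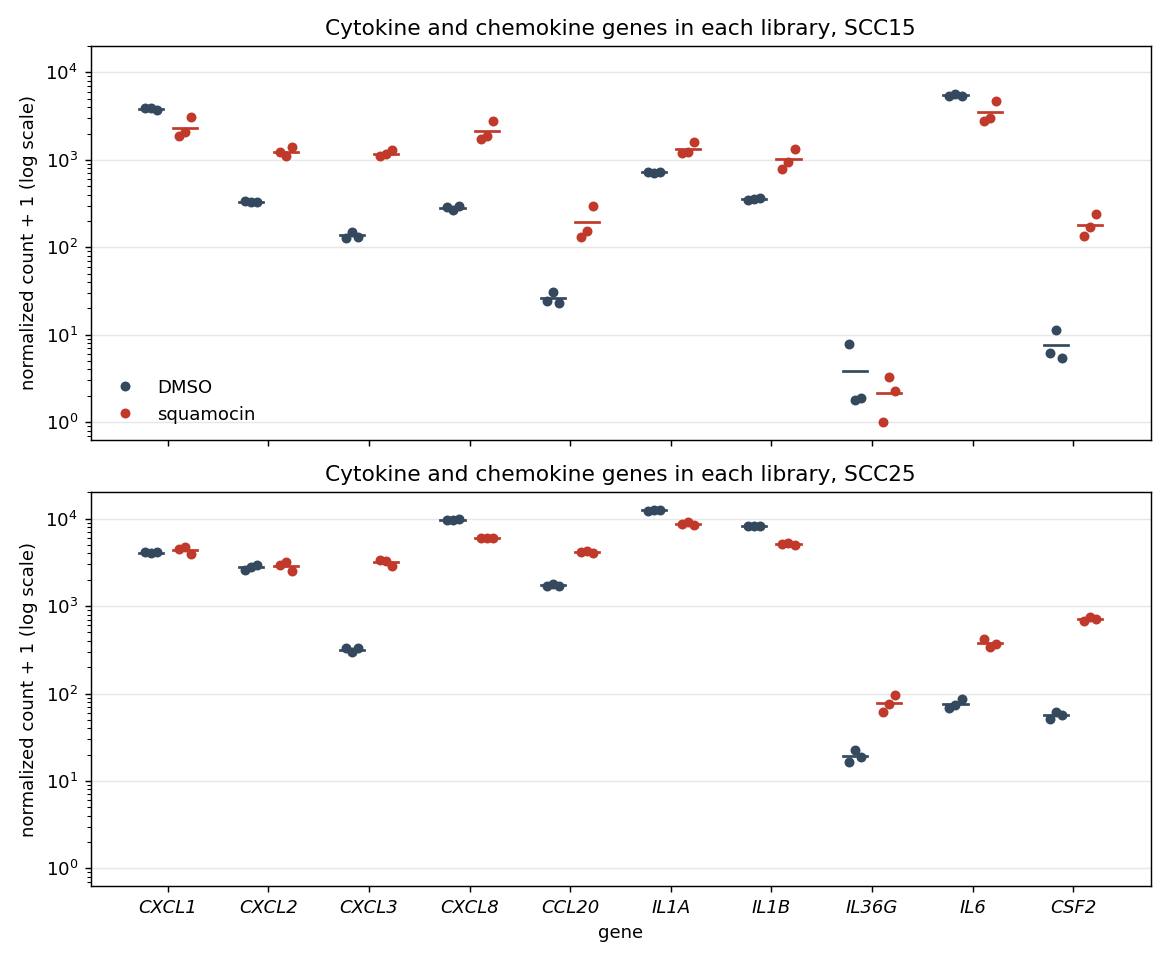
Normalized count plus 1 of each gene (log axis) in every library, with SCC15 above and SCC25 below; points are libraries in the order of replicates 1 to 3 and lines are group means (n = 3). The CXCL8 points of the squamocin libraries (1748 to 2798) lie above those of DMSO (267 to 292) in SCC15, and below them in SCC25 (5955 to 6084 against 9587 to 9859).

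CXCL3 showed the most alike response of the neutrophil chemokines in the 2 lines (ENSG00000163734, chr4:74036589-74038807, minus strand). Per-library values below follow the order of replicates 1, 2 and 3. In SCC15 its normalized counts were 1093, 1155 and 1278 with squamocin and 128, 150.2 and 128 with DMSO, and the groups did not overlap. The log2 fold change was 3.11 ± 0.11 (SE, n = 3 per group; adjusted p = 5.5e-06), an 8.67-fold ratio of the means. In SCC25 the values were 3363, 3315 and 2912 with squamocin against 328, 297 and 327 with DMSO, again without overlap. There the log2 fold change was 3.33 ± 0.068 (SE; adjusted p = 6.53e-13), a 10.1-fold ratio.

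CXCL2, which lies in the same cluster (ENSG00000081041, chr4:74097035-74099293, minus strand), rose in SCC15 and did not pass the test in SCC25. Its SCC15 values were 1229.9, 1092 and 1385 with squamocin and 340.4, 324 and 332 with DMSO. All squamocin libraries lay above all DMSO libraries, with a log2 fold change of 1.89 ± 0.11 (SE, n = 3 per group; adjusted p = 2.1e-05). In SCC25 it stood at 2914, 3154 and 2525 with squamocin and at 2579, 2764 and 2972 with DMSO. These groups overlapped, and the log2 fold change was 0.044 with a 95% interval from −0.12 to 0.21 (adjusted p = 0.607). Without SCC25 squamocin replicate 3, the lowest of its group, it was 0.13 and passed the test (adjusted p = 0.0232), and with equal library totals it was −0.16 and did not (adjusted p = 0.0549).

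CXCL1, the most abundant of the 10 per kb in untreated SCC15 cells (ENSG00000163739, chr4:73869393-73871242, plus strand), fell there. By normalized count alone IL6 was the higher in these cells, with a DMSO mean of 5490 against 3845 for CXCL1. CXCL1 had 1849, 2063 and 3088 normalized counts with squamocin against 3909.8, 3897 and 3728 with DMSO. The groups did not overlap although replicate 3 came closest to DMSO, and the log2 fold change was −0.76 ± 0.18 (SE, n = 3 per group; adjusted p = 0.00858). In SCC25 the counts were 4536, 4786 and 3896 with squamocin and 4133, 3996 and 4105 with DMSO. The lowest squamocin library lay below all DMSO libraries and the other two above them, with a log2 fold change of 0.11 (95% interval −0.032 to 0.24; adjusted p = 0.144). It was 0.19 without SCC25 squamocin replicate 3 (adjusted p = 4.17e-05), and −0.10 with equal library totals (adjusted p = 0.14).

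CXCL8, which encodes interleukin 8 (ENSG00000169429, chr4:73740506-73743716, plus strand), moved in opposite directions. In SCC15 it had 1748, 1885 and 2798 normalized counts with squamocin and 286, 267 and 292 with DMSO. The ratio of the means was 7.61-fold, with no overlap and a log2 fold change of 2.89 ± 0.17 (SE, n = 3 per group; adjusted p = 2.54e-05). In SCC25 it had 5955, 6084 and 6003 with squamocin and 9728, 9587 and 9859 with DMSO. Every squamocin library lay below every DMSO library there, with a log2 fold change of −0.69 ± 0.036 (SE; adjusted p = 2.2e-09). The treated SCC25 cells still held more CXCL8 counts than the treated SCC15 cells, although the tables were scaled separately.

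CXCL1, CXCL2 and CXCL3 resemble each other in sequence, so reads could be placed on the wrong gene. Of their exonic stretches of 50 bases, 4.57% in CXCL1, 13.4% in CXCL2 and 6.01% in CXCL3 occur in another of these genes, and 0 of those of CXCL8 do. How the authors treated such reads is not given in the sources used here.

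CCL20 (ENSG00000115009, chr2:227805739-227817564, plus strand) rose in both lines from very different levels. In SCC15 the normalized counts were 131, 150.5 and 296 with squamocin and 23, 30 and 21.8 with DMSO, the latter from 25 to 38 reads. Replicate 3 was the highest of the squamocin libraries, and the log2 fold change was 2.82 ± 0.32 (SE, n = 3 per group; adjusted p = 0.000296). In SCC25 the counts were 4201, 4314 and 4097 with squamocin and 1688, 1808 and 1696 with DMSO. The groups did not overlap and the log2 fold change was 1.28 ± 0.045 (SE; adjusted p = 7.79e-11).

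IL1A and IL1B lie together on chromosome 2 and moved in the same direction within a line. IL36G, of the same family and chromosome, rose in SCC25 where IL1A and IL1B fell, as given below. IL1A (ENSG00000115008, chr2:112773915-112784590, minus strand) had 1209, 1221 and 1578 normalized counts with squamocin and 725, 701 and 727 with DMSO in SCC15. That was a rise of 0.88 ± 0.12 on the log2 scale (SE, n = 3 per group; adjusted p = 0.000654), with no overlap. In SCC25 it had 8611, 9156 and 8408 with squamocin and 12224, 12525 and 12528 with DMSO. All treated libraries lay below all DMSO libraries, with a log2 fold change of −0.51 ± 0.040 (SE; adjusted p = 1.35e-07).

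IL1B (ENSG00000125538, chr2:112829751-112836903, minus strand) had 786, 947 and 1324 normalized counts with squamocin and 349, 356 and 361 with DMSO in SCC15. The treated libraries varied more than the DMSO libraries but lay above all of them, with a log2 fold change of 1.48 ± 0.18 (SE, n = 3 per group; adjusted p = 0.000409). The SCC25 counts were 5172, 5298 and 4974 with squamocin and 8207, 8310.5 and 8143 with DMSO. IL1B thus fell there, by 0.68 ± 0.039 on the log2 scale (SE; adjusted p = 5.8e-09), without overlap.

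IL36G (ENSG00000136688, chr2:112973203-112985665, plus strand) could be tested in SCC25 alone. Its counts there were 61, 74.9 and 94.4 with squamocin and 15.3, 21.6 and 17.7 with DMSO, from 48 to 85 and from 19 to 24 reads. It rose by 2.01 ± 0.24 on the log2 scale (SE, n = 3 per group; adjusted p = 6.1e-06). In SCC15 it had 0 to 2 reads with squamocin and 1 to 8 with DMSO, so that a change was not detectable at this depth.

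IL6 (ENSG00000136244, chr7:22725884-22732002, plus strand) moved against CXCL8 in each line. In SCC15 its normalized counts were 2809.9, 3045 and 4675 with squamocin and 5354, 5696 and 5420.2 with DMSO. The groups did not overlap, but replicate 3 lay near the DMSO libraries, and the log2 fold change was −0.68 ± 0.18 (SE, n = 3 per group; adjusted p = 0.0144). The call was lost without SCC15 squamocin replicate 2 (log2 fold change −0.60, adjusted p = 0.0507) and without SCC15 DMSO replicate 2 (−0.66, adjusted p = 0.0536). In SCC25 the counts were 419, 338 and 364 with squamocin and 66.9, 73.8 and 85 with DMSO. All treated libraries were higher, with a log2 fold change of 2.30 ± 0.13 (SE; adjusted p = 3.98e-09), a 4.97-fold ratio of the means. Exons of IL6 overlap those of IL6-AS1 and STEAP1B on the opposite strand, and since the strand setting of the counting is not given in the sources used here, reads of these genes cannot be told apart. STEAP1B held a mean of at most 4.51 normalized counts in any group. No gene named IL6-AS1 was listed for either line, so its level is not known.

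CSF2 (ENSG00000164400, chr5:132073790-132076170, plus strand) had the largest ratio of the 10 in either line. In SCC15 it went from 5.12, 10.3 and 4.36 normalized counts with DMSO (5 to 13 reads) to 133, 168 and 241 with squamocin. The ratio of the means was 27.4-fold and the log2 fold change 4.62 ± 0.35 (SE, n = 3 per group; adjusted p = 5.97e-05), on few reads in the DMSO group. In SCC25 it went from 50, 60.3 and 55.8 with DMSO to 681, 748 and 709 with squamocin, a 12.9-fold ratio. The groups did not overlap in either line, and the SCC25 log2 fold change was 3.67 ± 0.10 (SE; adjusted p = 1.22e-11).

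Without SCC15 squamocin replicate 3 the 9 genes tested in SCC15 kept their direction and their call. Over all 15902 genes tested, 12023 were then called, against 9694 with all libraries, so more calls are not particular to these genes. The rises were then smaller, for example 2.68 for CXCL8 (adjusted p = 2.24e-17), 2.46 for CCL20 (adjusted p = 3.05e-09) and 1.28 for IL1B (adjusted p = 1.57e-11) on the log2 scale. The falls were larger, at −0.98 for CXCL1 (adjusted p = 5.64e-13) and −0.91 for IL6 (adjusted p = 4.89e-13).

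**Figure D2:**
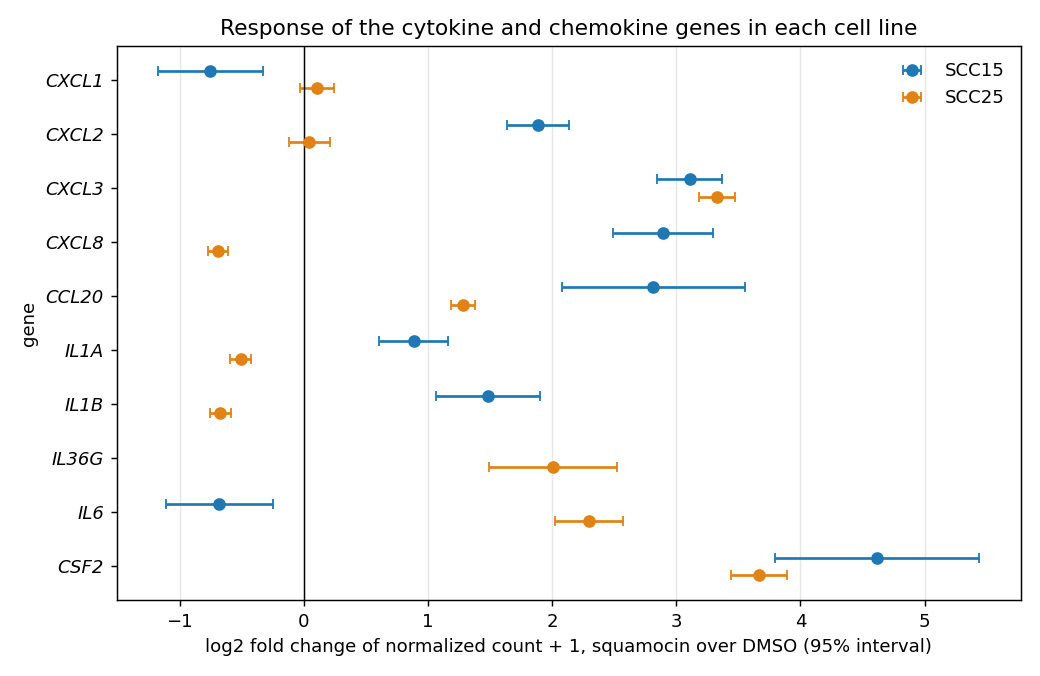
Log2 fold change of normalized count plus 1, squamocin over DMSO, of each gene in SCC15 and SCC25; points are limma estimates (n = 3 per group) and bars 95% intervals. The intervals of CXCL8, IL1A, IL1B and IL6 lie on opposite sides of 0 in the 2 lines, and IL36G has no SCC15 point since it was not tested there.

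The response itself differed between the lines for 8 of the 9 genes tested in both, higher in SCC25 for 2 and lower for 6. Over the 14454 genes tested in both lines, 26.0% differed in the first direction and 26.1% in the second. The log2 response in SCC25 minus that in SCC15 was −3.59 ± 0.19 for CXCL8 (SE; limma, adjusted p = 3.41e-08) and 2.98 ± 0.23 for IL6 (adjusted p = 5.02e-07). It was −2.16 ± 0.19 for IL1B (adjusted p = 1.7e-06), −1.39 ± 0.13 for IL1A (adjusted p = 2.48e-06) and −1.84 ± 0.14 for CXCL2 (adjusted p = 5.45e-07). CCL20 differed by −1.54 ± 0.32 (adjusted p = 0.0015), rising in both lines but less in SCC25, and CXCL1 by 0.86 ± 0.21 (adjusted p = 0.00368). For CSF2 the difference was −0.95 ± 0.37 (adjusted p = 0.0475), and it did not pass without SCC15 squamocin replicate 3 (−0.72, adjusted p = 0.0614), nor when any other single library was left out except SCC15 squamocin replicate 1 or SCC15 DMSO replicate 2. The CXCL3 difference of 0.22 did not pass (95% interval −0.071 to 0.51; adjusted p = 0.188), although it did without SCC15 squamocin replicate 3 (0.28, adjusted p = 0.0396) and with equal library totals (0.51, adjusted p = 0.00359). Equal totals moved the median difference of all genes from −0.012 to 0.27, and with them 69.5% of the called differences were higher in SCC25, against 49.9% with the authors' size factors.

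Levels of several genes lay nearer to each other in the 2 lines after treatment. CXCL8 was 34.5 times higher in SCC25 than in SCC15 with DMSO and 2.81 times with squamocin, as normalized counts. IL1B went from a ratio of 23.1 to 5.05, IL1A from 17.3 to 6.53, CXCL2 from 8.35 to 2.32 and CCL20 from 69.3 to 21.8. IL6 was 73.0 times higher in SCC15 than in SCC25 with DMSO and 9.39 times with squamocin. CXCL1 had SCC25 over SCC15 ratios of 1.06 with DMSO and 1.89 with squamocin, and CXCL3 had ratios of 2.34 and 2.72. For IL36G no ratio is given, as its reads in SCC15 were too few. The tables were scaled separately, so the ratios are a description with no test. The share of all genes tested in both lines whose ratio moved nearer to 1 was not computed. Nearer levels are thus not shown to be particular to these genes. As a share of each library's reads, which does not use the authors' factors, the CXCL8 ratio was 29.3 with DMSO and 2.95 with squamocin, and the CXCL1 ratio 0.899 and 1.99, so that CXCL1 with DMSO was then the lower in SCC25.

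**Figure D3:**
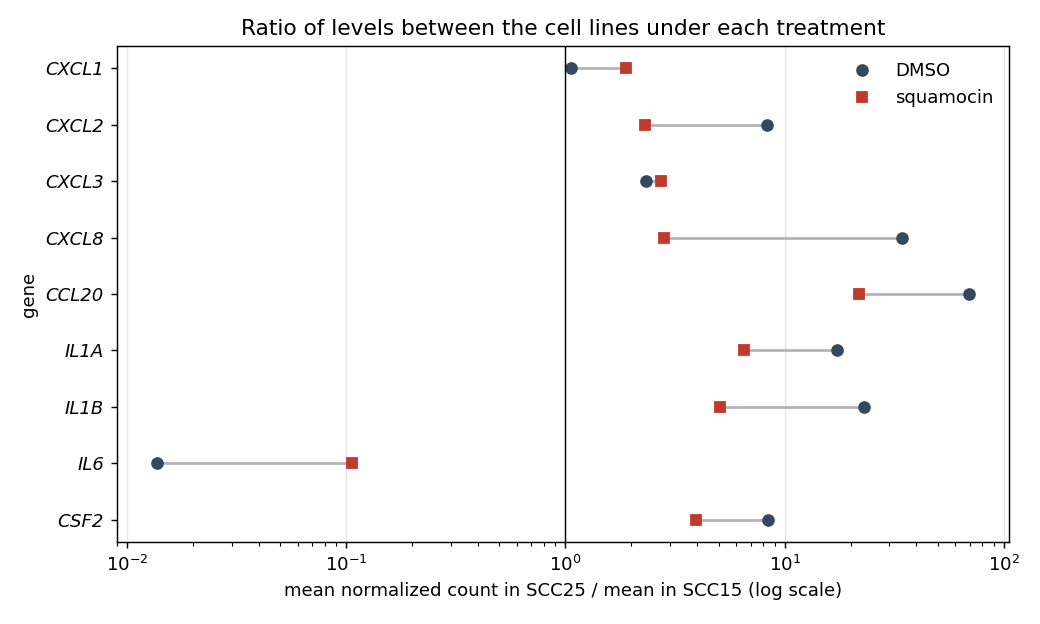
Mean normalized count in SCC25 divided by that in SCC15 (log axis) for the 9 genes tested in both lines, with DMSO (circles) and with squamocin (squares). For 7 genes the squamocin ratio lies nearer to 1 than the DMSO ratio, for example 34.5 and 2.81 for CXCL8, and for CXCL1 and CXCL3 it does not. The share of all genes with a nearer ratio was not computed.

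The make-up of the cytokine transcripts, compared per kb of exon, also changed. Shares and order rest on the union of all annotated exons as length, 4321 bases for IL6 and 1362 for CXCL1. By mean normalized count alone IL6 lay above CXCL1 in SCC15 with DMSO (5490 and 3845) and with squamocin (3510 and 2333). In untreated SCC15 cells CXCL1 held 56.4% ± 0.66 (SD, n = 3) of the summed level per kb of the 10 genes and IL6 held 25.4% ± 0.66. With squamocin these shares were 27.8% ± 1.57 and 13.2% ± 0.77, and CXCL2 (14.7% ± 2.13) and CXCL8 (13.5% ± 0.50) came next to CXCL1. In order, the SCC15 levels per kb ran CXCL1, IL6, IL1A, CXCL2, IL1B, CXCL8, CXCL3, CCL20, CSF2 and IL36G with DMSO, and no neighbours in this order overlapped. With squamocin the order was CXCL1, CXCL2, CXCL8, IL6, IL1A, CXCL3, IL1B, CSF2, CCL20 and IL36G. There the libraries of CXCL2 and CXCL8, CXCL8 and IL6, IL6 and IL1A, IL1B and CSF2, and CSF2 and CCL20 overlapped.

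Untreated SCC25 cells had another profile, with IL1A at 32.5% ± 0.21 (SD, n = 3), CXCL8 at 19.8% ± 0.27, CXCL1 at 15.8% ± 0.37 and IL1B at 14.4% ± 0.26 of the sum. CXCL2, CCL20, CXCL3, CSF2, IL6 and IL36G followed, of which IL6 and IL36G overlapped. With squamocin IL1A held 23.1% ± 0.43, CXCL1 17.2% ± 0.94, CCL20 14.1% ± 0.38 and CXCL8 12.4% ± 0.60. The rest of that order was CXCL2, IL1B, CXCL3, CSF2, IL6 and IL36G, with no overlap between neighbours. The summed level per kb was 18956 ± 229 with DMSO and 18769 ± 984 with squamocin in SCC25, and 5001 ± 92 and 6119 ± 1388 in SCC15 (SD, n = 3), where replicate 3 of squamocin was the highest at 7712. With equal library totals the squamocin sums were the lower in both lines. In SCC15 the sum of RPM per kb was 276 ± 32.4 after squamocin against 323 ± 5.21 in DMSO, and in SCC25 it was 888 ± 39.2 against 1037 ± 15.1 (SD, n = 3; not tested).

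The genes whose pattern over the 12 libraries, centred on the mean of each line, was most like that of CXCL8 were QSOX1 (Pearson r = 0.998), RPL3 (0.996) and RPN2 (0.995). QSOX1 had log2 fold changes of 1.29 in SCC15 and −0.29 in SCC25. Most like IL6 were SKAP2 (r = 0.991), C1GALT1 (0.988) and SFR1 (0.986), and SKAP2 had log2 fold changes of −0.29 and 0.90. These values describe 9690 candidate genes over libraries that share their treatment groups, and 467 candidates had an r of at least 0.9 with CXCL8 and 383 with IL6.

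Some receptors of these cytokines were little expressed, and of those tested some were called changed and others were not. Among all genes tested, 30.9% were called higher and 30.0% lower in SCC15, and 38.3% and 38.5% in SCC25. The counts of the receptors and of the lists below are to be read beside these shares. The receptor medians of log2 fold change were −0.26 in SCC15 and −0.050 in SCC25. Of the 10 receptor genes, 5 were tested in SCC15, where 1 rose and 1 fell (0 and 3 with equal totals, 1 and 2 without SCC15 squamocin replicate 1 or 3), and 6 in SCC25, where 2 rose and 2 fell. IL1R1, the signalling receptor of interleukin 1, was lower in both lines, with log2 fold changes of −0.92 ± 0.083 in SCC15 and −0.39 ± 0.11 in SCC25 (SE; adjusted p = 0.000118 and 0.00496). IL1RAP, its co-receptor, rose by 0.44 in SCC15 (adjusted p = 0.00356), a call lost with equal totals (−0.056), and had 0.14 in SCC25 (adjusted p = 0.0936). IL6R and IL6ST rose in SCC25, by 0.75 and 1.07 (adjusted p = 4.66e-08 and 8.24e-08), from 710.1 to 1192 and from 2485 to 5244 mean normalized counts. In SCC15 they had −0.051 and −0.26 (adjusted p = 0.822 and 0.0861), and IL6ST was called lower with equal totals (−0.76) and without SCC15 squamocin replicate 3 (−0.15, adjusted p = 0.00571), when IL6R had 0.14 (adjusted p = 0.27).

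Among antagonists and decoy receptors, 0 rose and 3 fell of 5 tested in SCC15 (1 fell without SCC15 DMSO replicate 2), and 3 rose and 1 fell of 4 tested in SCC25. Among the SCC15 falls, ACKR1 and ACKR2 entered the test only through DMSO (means of 18.7 and 24.4, against 5.45 and 5.39 with squamocin). IL1R2, among the SCC25 rises, entered only through squamocin (mean 30.1, against 6.27 with DMSO). IL1RN, the interleukin 1 receptor antagonist, rose in SCC25 from 109 ± 10.4 to 406 ± 22.6 normalized counts (SD, n = 3), a log2 fold change of 1.90 (adjusted p = 4.16e-09). It had means of 0.291 and 1.22 in SCC15 and was not tested. SIGIRR, an inhibitory receptor of the family, rose in SCC25 by 0.43 (adjusted p = 2.25e-05), with 0.62 in SCC15 (adjusted p = 0.172). IL18BP, which binds interleukin 18, fell in SCC25 by 1.44 on the log2 scale (adjusted p = 3.27e-06), with −0.78 in SCC15 (adjusted p = 0.152). ACKR3, a scavenging chemokine receptor, fell in SCC15 by 0.58 on the log2 scale (adjusted p = 0.019), and had a mean of at most 14.9 in SCC25.

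Other chemokines changed in both directions. Of 27 genes, 13 were tested in SCC15, of which 3 rose and 5 fell (2 and 8 with equal totals, 2 and 7 without SCC15 squamocin replicate 3), and 10 in SCC25, of which 6 rose and 3 fell. Their median log2 fold changes were −0.30 and 0.61. CCL22, a ligand of CCR4, rose in both lines, by 3.35 ± 0.22 and 3.98 ± 0.17 (SE; adjusted p = 3.46e-05 and 4.35e-10). CCL2, which attracts monocytes, fell in both, with log2 fold changes of −2.29 ± 0.41 and −1.32 ± 0.081 (adjusted p = 0.00225 and 1.17e-08). In SCC15 it had 8.80 ± 5.42 normalized counts with squamocin against 42.9 ± 6.01 with DMSO (SD, n = 3), and entered the test only through DMSO. In SCC25 it had means of 344 and 858. CCL25, among the SCC25 falls, also entered only through DMSO (mean 22.1, against 2.43 with squamocin). CCL5, a chemokine for T cells, rose in SCC25 from 70.8 ± 10.6 to 880.0 ± 73.2 normalized counts (SD, n = 3), a log2 fold change of 3.62 (adjusted p = 3.18e-11). It was at 26907 ± 592 with DMSO and 21244 ± 5795 with squamocin in SCC15, a log2 fold change of −0.37 that did not pass (adjusted p = 0.119). It was called lower with equal totals (−0.87) and without SCC15 squamocin replicate 3 (−0.59 ± 0.046, SE; adjusted p = 4.69e-10). CX3CL1, the membrane-bound chemokine, rose in SCC25 from 393 to 4377 (adjusted p = 1.11e-11) and had means of at most 6.64 in SCC15.

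More of the other cytokine and growth factor genes were called higher than lower. Of 36, 19 were tested in SCC15, of which 17 rose and 1 fell (10 and 1 with equal totals), and 25 in SCC25, of which 17 rose and 5 fell. The medians were 1.40 and 1.09. TNF, the gene of tumour necrosis factor, rose in SCC25 from 1019.6 ± 57.3 to 8333 ± 304 normalized counts (SD, n = 3), a log2 fold change of 3.03 (adjusted p = 1.22e-13). In SCC15 it rose from 1.39 ± 0.449 to 54.7 ± 15.2 (adjusted p = 7.45e-05), from too few reads with DMSO for a fold to be given. IL11, a cytokine that signals through gp130 like interleukin 6, rose by 1.03 ± 0.15 in SCC15 and 3.83 ± 0.15 in SCC25 (SE; adjusted p = 0.00107 and 2.28e-10). TSLP, an epithelial cytokine, rose by 1.40 in SCC15 (adjusted p = 0.0145, not called with equal totals) and by 3.34 in SCC25 (adjusted p = 1.34e-10). TNFSF10, which encodes the death ligand TRAIL, fell from 4897 to 853 in SCC15 and from 3809.5 to 218 in SCC25 (adjusted p = 1.5e-05 and 1.53e-13).

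Genes for the processing and release of interleukin 1 moved in part, in SCC25 near the shares of all genes tested (38.3% higher and 38.5% lower). Their median log2 fold changes were 0.71 in SCC15 and 0.073 in SCC25. Of 17, 15 were tested in SCC15, of which 9 rose and 2 fell (7 and 3 with equal totals, 10 and 3 without SCC15 squamocin replicate 3), and 16 in SCC25, of which 7 rose and 6 fell. S100A13, a partner in the export of interleukin 1α, rose by 1.29 ± 0.21 in SCC15 and 2.36 ± 0.060 in SCC25 (SE; adjusted p = 0.00159 and 4.4e-12). NINJ1, which ruptures the plasma membrane in lytic death, rose by 1.17 and 1.10 (adjusted p = 0.000229 and 1.8e-10), and the inflammasome sensor NLRP1 by 1.56 and 1.24 (adjusted p = 0.00429 and 1.77e-08). AIM2, a sensor of DNA, fell, with log2 fold changes of −1.43 and −0.995 (adjusted p = 6.38e-05 and 5.42e-06).

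The genes listed for NF-κB, its inhibitors and its partner factors were more often called higher than lower. All 27 were tested in both lines, and 20 rose and 3 fell in SCC15 (21 and 3 without SCC15 squamocin replicate 3), and 19 rose and 7 fell in SCC25. Their medians were 1.22 and 0.87. Of the subunit genes, RELB had log2 fold changes of 1.85 and 1.02 and NFKB2 of 1.46 and 0.96, called higher in both lines. RELA rose in SCC15 (1.14) and did not pass in SCC25 (0.12, adjusted p = 0.117). NFKB1 did not pass in SCC15 (0.10, adjusted p = 0.30, called lower with equal totals) and rose in SCC25 (0.33). REL did not pass in SCC15 (−0.48, adjusted p = 0.309) and fell in SCC25 (−0.53). CEBPB, which encodes a C/EBP factor, rose from 4586 ± 355 to 19225 ± 5285 normalized counts in SCC15 and from 3855 ± 154 to 30989 ± 760.1 in SCC25 (SD, n = 3; adjusted p = 0.000121 and 2e-14). DDIT3, the stress factor CHOP, rose by 4.30 ± 0.23 and 2.63 ± 0.046 (SE; adjusted p = 1.62e-05 and 1.66e-13). EGR1 and FOS, immediate-early genes, fell in both lines. EGR1 had log2 fold changes of −3.04 and −4.19 (adjusted p = 1.22e-05 and 7.35e-16) and FOS of −1.24 and −4.22 (adjusted p = 0.000484 and 3.24e-13).

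**Figure D4:**
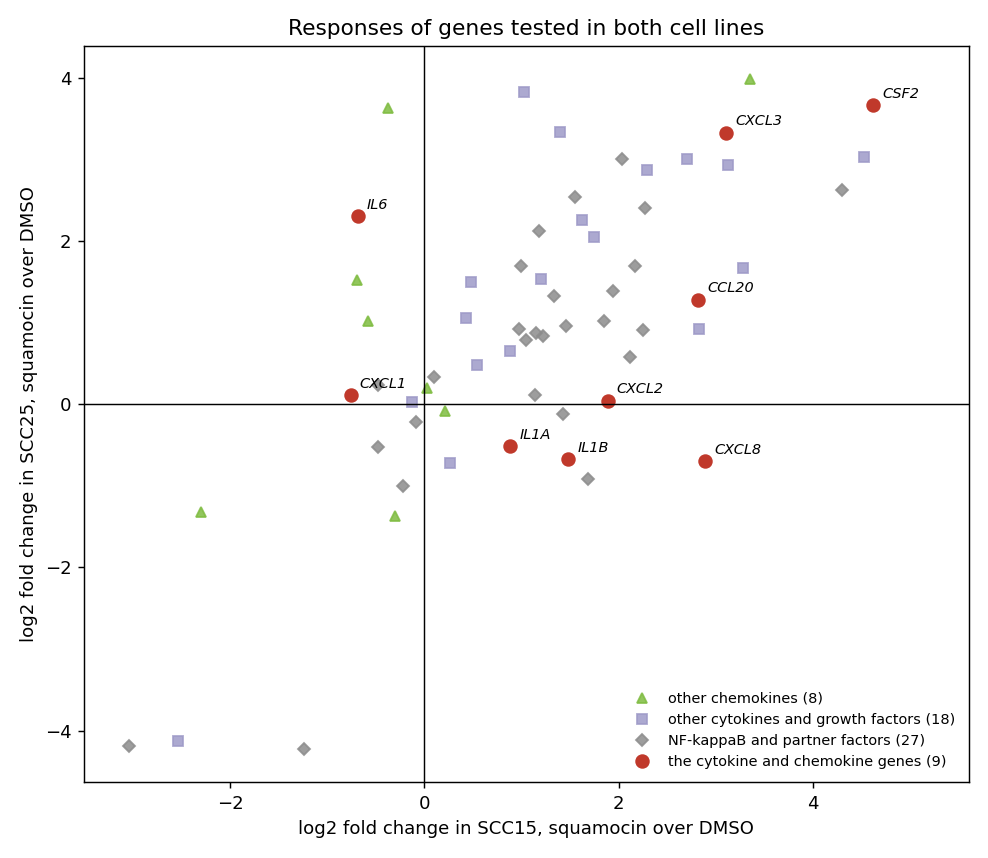
Log2 fold change in SCC15 (x axis) and SCC25 (y axis), squamocin over DMSO, for genes tested in both lines: 9 of the cytokine and chemokine genes (circles, named), 8 other chemokines, 18 other cytokines and growth factors and 27 NF-κB and partner factors. CXCL8, IL1A and IL1B lie at the lower right and IL6 at the upper left, while CXCL3 and CSF2 lie at the upper right with values above 3 in both lines.

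Signal transduction genes of the IL-1 and IL-6 pathways moved both ways, with median log2 fold changes of 0.27 in SCC15 and 0.16 in SCC25. Of 21, 10 rose and 5 fell in SCC15 (5 and 8 with equal totals, and 5 or 6 rose when SCC15 squamocin replicate 1 or 2 or any SCC15 DMSO library was left out, and 12 rose and 6 fell without SCC15 squamocin replicate 3), and 11 rose and 7 fell in SCC25 (8 and 10 with equal totals). SOCS1, an inhibitor of JAK kinases, rose by 4.58 ± 0.15 and 4.36 ± 0.060 (SE; adjusted p = 4.72e-06 and 2.22e-14). IRAK2, a kinase below the IL-1 receptor, rose by 1.98 in SCC15 (adjusted p = 5.83e-06) and by 0.20 in SCC25 (adjusted p = 0.00376, −0.003 and not called with equal totals). MAP3K8 rose by 1.59 and 1.81 (adjusted p = 0.000109 and 6.34e-10), and the ubiquitin ligase gene TRAF6 by 0.54 and 1.502 (adjusted p = 0.0231 and 5.26e-11), with the SCC15 call of TRAF6 lost under equal totals (0.044).

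Of 15 genes that set the stability of cytokine mRNA, 6 rose and 3 fell in SCC15 (3 and 9 with equal totals, 6 and 4 without SCC15 squamocin replicate 3) and 10 rose and 4 fell in SCC25. ZFP36, which encodes tristetraprolin, a protein that marks AU-rich cytokine mRNAs for decay, rose from 691 ± 44.1 to 10101 ± 557 normalized counts in SCC15 and from 4504 ± 65.4 to 17493 ± 770.4 in SCC25 (SD, n = 3). Its log2 fold changes were 3.87 and 1.96 (adjusted p = 3.04e-06 and 8.35e-13). ARID5A, which stabilizes IL6 mRNA, rose by 1.06 ± 0.15 in SCC15 and fell by 1.20 on the log2 scale in SCC25 (adjusted p = 0.000724 and 3.23e-06), opposite to IL6 itself in each line. TIAL1 rose by 0.97 and 1.00 (adjusted p = 0.000422 and 3.95e-10). ZC3H12C fell in SCC15 by 1.17 on the log2 scale (adjusted p = 4.15e-05) and had 0.20 in SCC25 (adjusted p = 0.025, −0.010 and not called with equal totals).

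Markers of cell types were checked beside these results. Of 10 squamous epithelial markers KRT17 was highest in all groups, and the sum over the markers was 113422 to 119751 with DMSO and 209636 to 363592 with squamocin in SCC15, and 30620 to 30887 and 55162 to 57914 in SCC25. In SCC15 4 of these markers rose and 0 fell (2 and 3 with equal totals), and in SCC25 6 rose and 3 fell. KRT17 rose by 1.17 and 1.60 on the log2 scale (adjusted p = 0.0046 and 6.07e-12), and SFN by 0.82 and 1.55 (adjusted p = 0.0147 and 3.82e-12). PKP1 had log2 fold changes of 0.95 in SCC15 and −1.25 in SCC25 (adjusted p = 0.000942 and 4.09e-05). The SCC15 calls of SFN and PKP1 were lost with equal totals. KRT6A had −0.21 in SCC15 (adjusted p = 0.16, called lower with equal totals) and 1.09 in SCC25 (adjusted p = 1.75e-05). KRT5 and CDH1 also fell in SCC25. KRT5, DSG3, TP63 and EPCAM were near absent in SCC15, with means of at most 17.5, while all 10 had means above 50 in SCC25.

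Leukocyte markers, a possible source of cytokines, summed to 523.8 to 566.6 with DMSO and 330 to 509 with squamocin in SCC15, and to 450.6 to 532.5 and 146 to 179 in SCC25. Of 14 markers 2 were tested in SCC15, of which 0 rose and 0 fell (1 fell with equal totals, and 2 without SCC15 squamocin replicate 3), and 4 in SCC25, of which 1 rose and 1 fell. MS4A1 and TYROBP were listed in neither table, and the pan-leukocyte marker PTPRC was listed in SCC15 alone, with a mean of at most 3.05. CD14 made up most of the DMSO sums. Its SCC15 log2 fold change was −0.44 (adjusted p = 0.0591), called lower with equal totals (−0.94) and without SCC15 squamocin replicate 3 (−0.64), and in SCC25 fell from 351 to 4.81 (adjusted p = 4.55e-10). Fibroblast and endothelial markers summed to 932 to 995 with DMSO and 569 to 586 with squamocin in SCC15, and to 1050.1 to 1157 and 1109.6 to 1276 in SCC25. Of 12, 6 were tested in SCC15, of which 0 rose and 3 fell (0 and 6 with equal totals, 0 and 4 without SCC15 squamocin replicate 3), namely COL3A1, DCN and PECAM1, with log2 fold changes of −0.78, −0.76 and −1.19 (adjusted p = 0.000554, 0.00678 and 0.000345). In SCC25 7 were tested, of which 1 rose and 4 fell (1 and 5 with equal totals), among them CDH5 (−3.59; adjusted p = 1.44e-08) and PECAM1, which fell from 75.3 ± 9.47 to 2.38 ± 2.08 normalized counts (SD, n = 3; adjusted p = 3.22e-06), from too few reads with squamocin for a fold to be given. COL1A1, the highest of the fibroblast and endothelial markers in SCC25, was the 1 that rose there. It went from 576 ± 19.8 to 938 ± 88.9 normalized counts (SD, n = 3), a log2 fold change of 0.70 (adjusted p = 1.62e-06). The part of the leukocyte, fibroblast and endothelial markers in the cytokine results was not tested.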

How the data were processed

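RNA-seq libraries of SCC15 and SCC25 cells, 3 per treatment and line, were analysed from 2 gene tables. Per the submitters' processing notes and the study's methods, the authors aligned reads to GRCh38 with HISAT2 2.0.5 and counted them per gene with featureCounts 1.5.0-p3. The deposited signal per gene is a normalized count: the authors scaled each library's reads by its size factor, separately in each cell line; the columns called FPKM in the SCC25 table are not FPKM. Multiplied by the factor, 100% of the values were whole to within 0.02 reads. Columns with the authors' own fold changes and p-values were not used. The kit is named differently in the labels (NEBNext Ultra) and the methods (NEBNext Ultra II).

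The main test was limma's moderated test on log2(normalized count + 1), two-sided, with the trend option (version 3.58.1, R version 4.3.3). Genes with a mean of at least 10 in a table entered, with Benjamini-Hochberg adjustment over them, within each line and for the difference between lines. A gene low in 1 group could thus enter through the other group alone, in the other lists as well. With 3 reads as the limit of counting error, no fold is given where the libraries of a group held at most that many; reads carry no molecular identifiers, so this covers counting error only. Count tests on the whole reads, by edgeR (4.0.16) and by DESeq2 (1.42.0), called 9831 and 9965 genes in SCC15, against 9694 by limma, and 12797 and 12190 in SCC25, against 12702. Gene lengths are exon unions of GENCODE release 44, since the tables used here gave no length, and serve only levels per kb. Promoter sequences are RefSeq's (GRCh38.p14), and all 10 genes matched.

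The genes and the lists were chosen with earlier results of these data known. From each other list, up to 4 genes were named that were called in at least 1 line with a mean of at least 50 there and had the largest absolute log2 fold change, and for CXCL8 and IL6 the 3 most correlated genes with a mean of at least 100 in both tables. Alternatives were pseudocounts of 0.1 and 10, 2 other filters, equal totals, TMM factors, edgeR, DESeq2, a replicate block, an absolute log2 fold change above 1, and each library left out. On simulated counts limma recovered 90% and 84% of changes of 1 (log2) in SCC15 and SCC25, 100% of changes of 2, and 82% and 97% of such differences between lines. Of its calls on these counts 4.52% and 4.66% were false in SCC15 and SCC25, and 5.29% for the differences. The simulated libraries all had the same extra spread between replicates, unlike the real SCC15 squamocin libraries. These rates therefore do not give the power in these data.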

Additional observations from a re-analysis of the deposited data

Results flagged for a closer look

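The response to squamocin differed between SCC25 and SCC15, by a test of the difference itself, for 8 of the 9 genes tested in both lines. On the log2 scale, SCC25 minus SCC15, the difference was 0.86 for CXCL1, −1.84 for CXCL2, −3.59 for CXCL8, 2.98 for IL6, −1.39 for IL1A, −2.16 for IL1B, −1.54 for CCL20 and −0.95 for CSF2. CXCL8, IL1A and IL1B fell in SCC25 where they rose in SCC15, and IL6 rose where it fell, while CCL20 and CSF2 rose in both lines, CCL20 less in SCC25. The CSF2 difference lay close to the threshold (adjusted p = 0.0475): it was −0.032 with a pseudocount of 10, and was not called with TMM factors, equal totals, no filter, the replicate block or without most single libraries. The genes of the CXCL1, CXCL2 and CXCL3 cluster hold the same 10-base κB element, and their SCC15 responses were −0.76, 1.89 and 3.11.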

How the results depend on the processing

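Over the 28 log2 values of the genes (9 in SCC15, 10 in SCC25 and 9 differences), 467 recomputed values kept direction and side of the threshold, 25 lost a call, 4 gained one and 4 changed sign. The 4 sign changes were of values near 0: CXCL1 in SCC25 with equal library totals (−0.10), and CXCL2 in SCC25 with equal totals (−0.16), without squamocin replicate 2 (−0.029) and without DMSO replicate 1 (−0.0069). CXCL2 in SCC25 was 0.13 and called without squamocin replicate 3. A further limit of 1 on the size of the log2 change left 0 genes lower in SCC15, 0 lower in SCC25 and 1 with a higher response in SCC25, and over all genes it left 4318 of 9694 calls in SCC15, 5106 of 12702 in SCC25 and 3112 of 7540 differences. Leaving out each library in turn, the count of genes lower in SCC15 ranged from 1 to 2. The CSF2 difference was not called with a pseudocount of 10 (−0.032), with no filter, with TMM factors or with equal totals (−0.70, adjusted p = 0.111); the cause was not tested. Replicate numbers are shared by the groups, but the deviations of samples with the same number correlated from −0.092 to 0.042, so that they share only a number. With the number as a replicate block, the counts of genes called were 7 higher and 2 lower in SCC15 and 5 and 3 in SCC25, as without it, and 5 rather than 6 responses were lower in SCC25, CSF2 being lost (adjusted p = 0.0571). Depth limits IL36G and CSF2 in SCC15, with 0 to 8 reads and, under DMSO, 5 to 13.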
